A study of Rattus norvegicus with 8 samples.

Results

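On the plus strand of rat chromosome 19, between positions 34207716 and 34372833 of the Rnor_6.0 genome build, the cortex yielded 71 different circular RNAs (circRNAs) of the 51995 listed in the whole study. These 71 are all listed circRNAs of that strand whose start and end both lie in the window. The locus was chosen by its number of tested circRNAs: 55 of its members were listed in at least 4 of 8 libraries and could be tested, which placed it between a locus with 57 and the next with 44. The number of members is therefore a description of the locus and not a result. The deposited table names no genes and no annotation of this build was used here, so the locus carries no gene name, and its positions are not assigned to exons, introns or untranslated regions.

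The samples were cerebral cortex of rats, 4 sham and 4 after a moderate traumatic brain injury (mTBI), with 1 library each. The labels do not spell out that each sample came from a rat of its own, so p-values measure only the spread between these samples, which may be technical. Tissue was taken 24 h after injury from the cortex around the injury site on the injured side, or from the same site in sham animals, after perfusion with cold saline. Both groups gave total RNA for stranded libraries depleted of ribosomal RNA. How the injury was made, and the rats' strain, sex and age, are not given in the sources used. The tissue label was not checked against marker genes because the table names none.

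A circRNA forms when the spliceosome joins a downstream donor splice site back to an upstream acceptor site, a reaction called back-splicing. The resulting ring has no free ends, which protects it from exonucleases, and circRNAs are known to be abundant in brain, where many come from genes active at synapses. A single gene can give many circRNAs when several acceptors and donors are paired in different ways. On the plus strand, the lower coordinate of a circRNA lies on its acceptor side and is called its start here, while the higher coordinate lies on its donor side and is called its end.

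Abundance is given in RPM, the reads assigned to a circRNA, scaled to the same number of reads in every library. Together the 71 circRNAs amounted to 1216 to 1525 reads in a library, counting its smallest value as 2 reads. The spacing of the values fits that count, without proving it. On that reading a 0 can stand for a single read as well as for no read. All circRNAs of a library together held 384910 to 452692 reads. Pairs of replicates differed 2.87 to 3.64 times as much as counting noise alone would give (chi-square divided by its degrees of freedom), and no pair agreed within sampling noise.

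The 71 circRNAs were built from 14 starts and 21 ends. All of them were linked into a single chain by exact shared positions, and no circRNA outside the window belonged to that chain. Of the 161 start and end pairs in the right order, 15 would span more than the longest circRNA of the table (99985 bases, end minus start) and 10 less than the shortest (137 bases). The remaining 136 pairs could in principle be listed, and 71 of them were (52.2%), 36 in all 8 libraries.

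**Figure D1:**
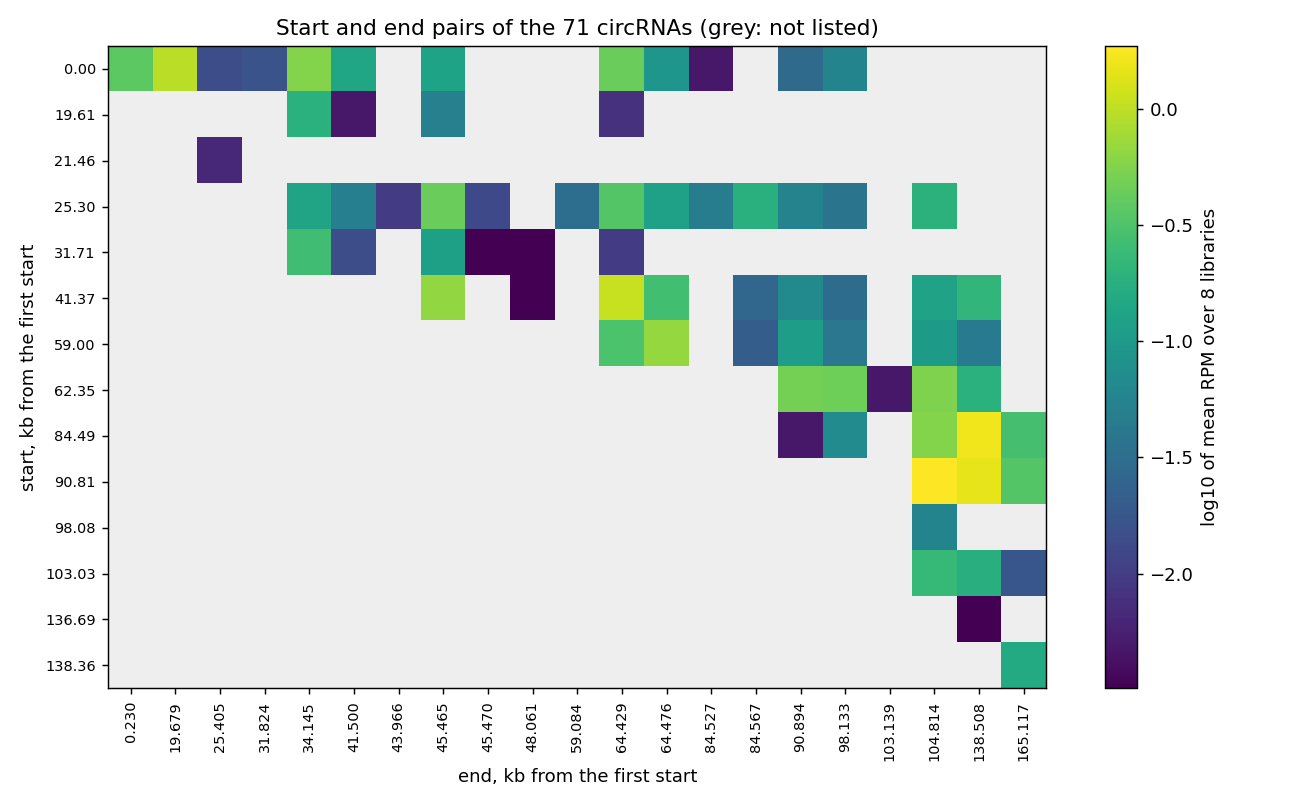
Each square is 1 circRNA, placed by its start (vertical axis) and end (horizontal axis) in kb from the first start, and coloured by log10 of its mean RPM over 8 libraries. Grey squares are pairs not listed, including those with the end before the start; the brightest squares lie at the starts at 84.49 and 90.81 kb.

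Starts and ends lay next to each other along the locus. Of the 14 starts, 11 had a listed end at most 300 bases downstream, at distances of 34 to 230 bases, and in this way 12 of the 21 ends were matched to a start. The start at 34298523, for example, lay 87 bases before the end at 34298610. Only 2 of these 12 short pairs are long enough to be listed as circRNAs at all. The pair from 34207716 to 34207946, 230 bases long, was listed in every library, and the pair from 34346074 to 34346224, 150 bases long, was listed in none.

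The number of partners differed between positions. The start at 34233020 was used by 13 circRNAs and that at 34207716 by 12, followed by 9 for the start at 34249087. Among the ends, 34312530 was shared by 8 circRNAs, 34346224 by 7 and 3 more positions by 6 each. At the other extreme, 4 starts and 6 ends were used by a single circRNA. At the downstream edge, 1 further plus-strand circRNA, from 34372674 to 34395489, began inside the window and ended outside it. It is not a member, shares no position with the members and was listed at 0 to 0.0649 RPM, while its start lay 159 bases before the last end of the locus. No minus-strand circRNA overlapped the window.

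No single circRNA dominated. The leading circRNA, from 34298523 to 34312530, held 10.6% of the locus total on average (9.40% to 12.7% over the 8 libraries). It stood at 2.16, 1.85, 1.76 and 1.59 RPM in sham replicates 1 to 4 and at 1.65, 1.76, 2.24 and 1.88 RPM in mTBI replicates 1 to 4. The groups overlapped, and the log2 change was 0.03 (SE 0.16, limma adjusted p = 0.99998).

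The second circRNA, from 34292209 to 34346224, spans 54015 bases. It had 1.63, 1.40, 1.37 and 1.66 RPM in the sham libraries and 1.86, 1.35, 2.23 and 1.48 RPM in the mTBI libraries. The third, from 34298523 to 34346224, shares its start with the first and its end with the second. It had 1.67, 1.30, 1.203 and 1.41 RPM in the sham libraries and 1.66, 1.35, 1.52 and 1.75 RPM in the mTBI libraries. In both the highest value was an mTBI library, but the groups overlapped (limma adjusted p = 0.986 and 0.978).

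These 3 circRNAs made up 28.4% of the locus and the 12 most abundant 62.9%. The other 9 of those 12 averaged between 0.456 and 1.09 RPM over all libraries. Mean levels over the 71 members ran from 0.00322 to 1.86 RPM. The 36 circRNAs listed in all 8 libraries carried 93.5% of the locus total, while the 10 listed in a single library carried 0.277%. Only 28 members averaged more than 1% of the total.

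**Figure D2:**
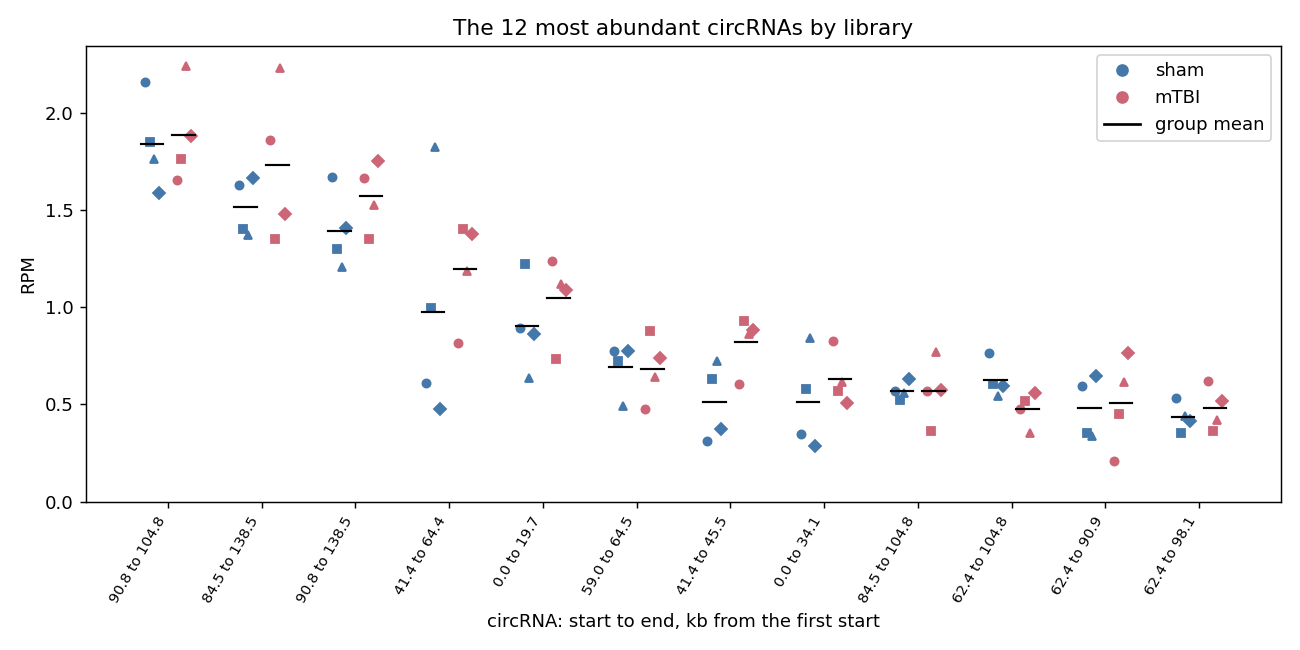
RPM of the 12 most abundant circRNAs in each of the 4 sham and 4 mTBI libraries (circle, square, triangle and diamond for replicates 1 to 4), with the group mean as a bar; circRNAs are named by start and end in kb from the first start. The widest spread within a group is that of the circRNA at 41.4 to 64.4 kb, from 0.477 to 1.82 RPM in sham.

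Many of the circRNAs span long stretches of the genome, although the spliced rings themselves may be far shorter. Spans ran from 230 to 98133 bases with a median of 32715, against a median of 12156 in the whole table. Of the 71, 19 span more than 50000 bases, and they carried 22.8% of the locus total. Of all listed circRNAs, 10.8% span that far, with 8.47% of the RPM. Of the circRNAs listed in all 8 libraries, the shortest was the 230-base one at the upstream edge, with 0.298 to 0.380 RPM over the sham libraries and 0.283 to 0.516 RPM over the mTBI libraries. The longest, from 34249087 to 34346224 with 97137 bases, is described below.

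Summed by start, the one at 34298523 led with a mean of 21.0% of the total over only 3 circRNAs, followed by 34207716 with 16.1%, 34292209 with 14.6% and 34249087 with 14.1%. Among the ends, 34346224 and 34312530 were nearly level at 21.3% and 21.1%, ahead of 34272145 at 12.4% and 34253181 at 7.92%. The start used by the most circRNAs, 34233020, held 9.39%. The start with the most partners was thus not the one with the most RPM.

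Starts differed in the ends they were joined to. Of the RPM from the start at 34292209, 63.7% ended at 34346224 (59.4% to 70.6% over the libraries) and 22.3% at 34312530. From the next start downstream, 34298523, 40.3% ended at 34346224 (35.9% to 44.8%) and 50.5% at 34312530. The share at 34346224 was thus higher for the upstream start of this pair in all 8 libraries, a description without a test. From the first start of the locus, 34207716, 34.4% ended at 34227395, 20.1% at 34241861 and 15.4% at 34272145.

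At 3 places a pair of ends lay at most 60 bases apart, and no pair of starts did. The most abundant of these pairs was 34272145 and 34272192, 47 bases apart. For 3 starts the upstream end of the pair was preferred: the downstream end took 17.2% of their joint RPM with the start at 34207716, 26.8% with 34233020 and 20.1% with 34249087. For the start at 34266719 the preference was the other way, with 69.3% at the downstream end.

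With the start at 34266719, the downstream end took 66.7%, 71.4%, 51.4% and 70.6% in sham and 74%, 79.1%, 70% and 71.3% in mTBI. For the other 3 starts the share ran from 0% to 46.2% over all libraries. Every value of the 34266719 start thus lay above every value of the other 3. These percentages rest on 326 reads for the start at 34207716, 283 for 34233020, 839 for 34249087 and 612 for 34266719, over all libraries. The comparison was chosen after its values were seen and is given without a test.

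**Figure D3:**
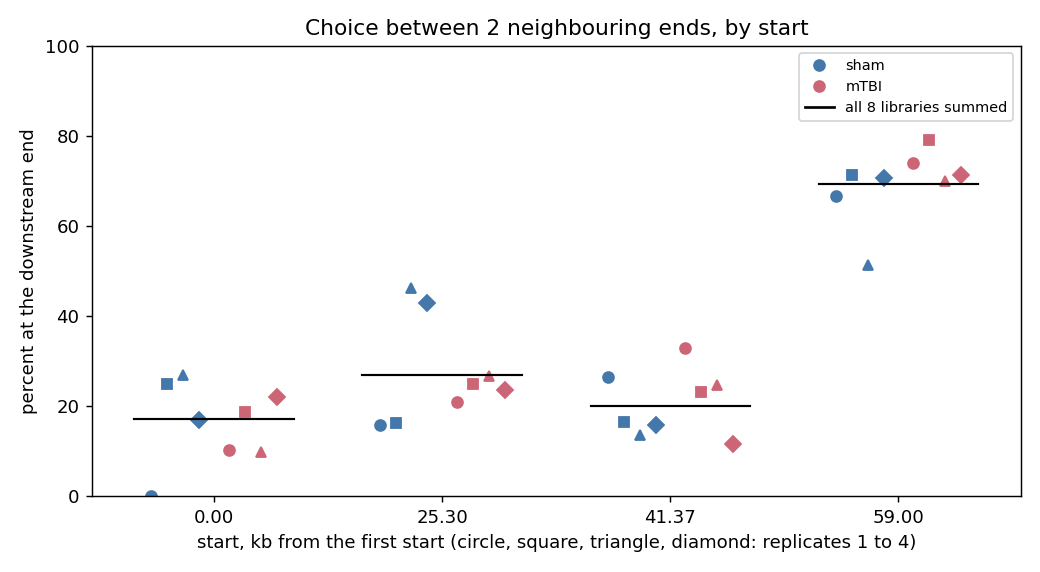
Percent of the joint RPM of the ends at 34272145 and 34272192 that fell on the downstream one, for 4 starts given in kb from the first start, in each sham and mTBI library, with the value over all 8 libraries as a bar. Points of the start at 59.00 kb lie between 51.4% and 79.1%, above all points of the other starts.

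The start at 34270069, which lies between 34266719 and these ends, was listed with neither of them. All 5 of its circRNAs ended further away, at 34298610 (29.3%), 34305849 (27.0%), 34310855 (0.286%), 34312530 (32.5%) and 34346224 (11.002%). The other pairs of neighbouring ends were lopsided. The end at 34253186, 5 bases beyond 34253181, was listed in only 2 circRNAs, with a summed 0.129 RPM against 11.2 RPM over all libraries. Of 34292243 and 34292283, 40 bases apart, the downstream one took 79.7% for the start at 34233020.

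The main comparison asked whether the locus as a whole differed between injured and sham cortex. Its total came to 16.95, 16.5, 17.2 and 15.7 RPM in the sham libraries and 17.6, 17.02, 19.9 and 19.3 RPM in the mTBI libraries. Of the mTBI libraries, 3 lay above all sham libraries and 1, replicate 2, lay below the highest of them. The mean difference of 1.86 RPM (16.6 ± 0.672 against 18.4 ± 1.36 RPM, SD, n = 4 each) exceeded either SD and had an exact permutation p of 0.0571 (two-sided, over the 70 assignments of libraries to groups).

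On the log2 scale of log2(RPM + 0.0259), the difference in the locus total was 0.15 (SE 0.10). It did not pass the limma test over all loci (adjusted p = 0.951), in which 1 of 7776 loci passed (0.0129%). Without the leading circRNA the totals averaged 14.7 ± 0.558 RPM in the sham libraries and 16.6 ± 1.16 RPM in the mTBI libraries (SD, n = 4 each, exact permutation test, p = 0.0571). In bulk tissue, a difference in the number of cells that make these circRNAs and a difference in their amount per cell cannot be told apart.

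Taken as a part of each library's circRNA RPM, the locus held 0.307%, 0.321%, 0.317% and 0.279% in sham and 0.354%, 0.340%, 0.359% and 0.329% in mTBI. All 4 mTBI values lay above all 4 sham values, which was true of 1.66% of the loci tested. The difference of 0.0394 percentage points had the smallest p that 4 libraries per group can give (exact permutation test, two-sided, p = 0.0286). Without sham replicate 4 the p was 0.0571 with a difference of 0.0305 (exact permutation test). The p was not adjusted over loci, and with libraries centred on their median the limma test over all loci gave an adjusted p of 0.744 at a log2 change of 0.21. The summed circRNA RPM by which this share is divided did not separate the groups (5427 ± 199 RPM in the sham libraries and 5345 ± 439 RPM in the mTBI libraries, SD, n = 4 each, exact permutation test, p = 0.743).

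**Figure D4:**
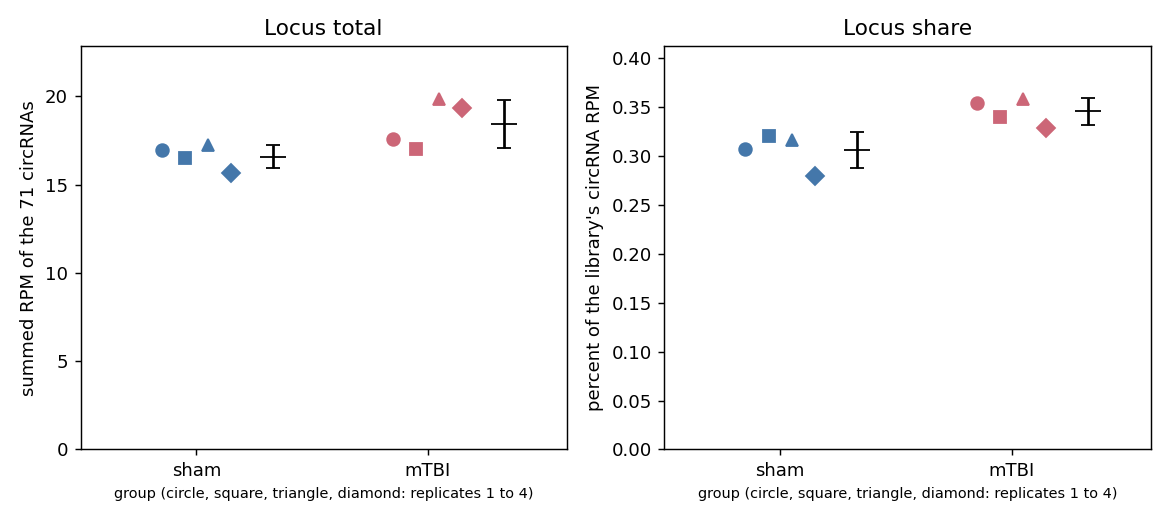
Summed RPM of the 71 circRNAs (left) and the same as a percent of all circRNA RPM of the library (right) for each sham and mTBI library, with mean and SD beside them (n = 4 each). The totals overlap between groups, from 15.7 to 17.2 RPM in the sham libraries and 17.02 to 19.9 RPM in the mTBI libraries, while the percentages do not.

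None of the 55 tested members passed an adjusted p of 0.05 (limma), where 0.0248% of all 20174 circRNAs tested did. An unadjusted p under 0.05 was found for 4 of the 55, all higher in mTBI, and for 4.68% of all circRNAs tested. The members' median log2 change was 0.13, against -0.02 over all circRNAs tested, with 34 members above 0 and 21 below, while 48% of all circRNAs tested lay above 0. The smallest adjusted p was 0.551. Of the 32 members averaging at least 10 reads, 24 had a log2 change within 0.5 of 0. The matching share over all such circRNAs was not computed.

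The circRNA with the smallest p, from 34227324 to 34241861, was also the only tested member whose groups did not overlap, and it was higher in mTBI. Among all circRNAs tested, 1.39% were higher without overlap and 1.41% lower. It had 0, 0.157, 0.181 and 0.0516 RPM in the sham libraries and 0.232, 0.334, 0.287 and 0.260 RPM in the mTBI libraries. On the log2(RPM + 0.0259) scale the difference was 1.69 (SE 0.47, limma unadjusted p = 0.00101, adjusted p = 0.551). Its size depended on the sham library at 0 and on the pseudocount: it was 1.08 without sham replicate 1, 1.03 with 4 times the pseudocount and 2.29 with voom on reads. The adjusted p ran from 0.0110 with robust variance shrinkage, and 0.0337 with no filter on low values, to 0.994 without sham replicate 1. Summed over its 4 circRNAs, the start at 34227324 had 0.0258, 0.183, 0.272 and 0.129 RPM in the sham libraries and 0.335, 0.476, 0.287 and 0.311 RPM in the mTBI libraries. Of that RPM 74.4% was this same circRNA. As a share of the locus, the groups of this start overlapped (1.58% in sham replicate 3, 1.44% in mTBI replicate 3).

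Next by p came 2 circRNAs with the start at 34249087. The one ending at 34253181 had 0.310, 0.629, 0.725 and 0.374 RPM in the sham libraries and 0.606, 0.926, 0.860 and 0.882 RPM in the mTBI libraries, and a log2 change of 0.72 (SE 0.24) with limma's adjusted p = 0.866. The one ending at 34272192 had 0.220, 0.197, 0.285 and 0.0902 RPM in the sham libraries and 0.400, 0.424, 0.391 and 0.182 RPM in the mTBI libraries (limma adjusted p = 0.973). In each, 3 of the 4 mTBI libraries lay above all sham libraries, and neither passed the test.

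Of the members with a lower mTBI mean, those with the smallest p did not pass either. The circRNA from 34266719 to 34272145 had 0.388, 0.288, 0.466 and 0.322 RPM in the sham libraries and 0.168, 0.232, 0.274 and 0.298 RPM in the mTBI libraries, and a log2 change of -0.55 (SE 0.28) with limma's adjusted p = 0.973. The circRNA from 34270069 to 34312530 had 0.543 to 0.762 RPM in the sham libraries and 0.352 to 0.558 RPM in the mTBI libraries. The third, from 34266719 to 34305849, was listed at 0 in 1 sham library and 2 mTBI libraries, with at most 0.142 RPM in any library. In all 3 the groups overlapped.

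Whether the members changed by different amounts was tested within the locus as well. They did not pass (limma diffSplice over the 55 tested members, adjusted p = 0.9999), where 0.0912% of 3289 loci did. Over the alternatives tried, the smallest adjusted p of that test (limma diffSplice) was 0.999. Between libraries the profile of shares over the 71 members correlated with a Pearson r of 0.832 to 0.968 within groups (12 pairs) and 0.877 to 0.962 between groups (16 pairs). These correlations are across circRNAs, which share libraries and splice positions, and are given as a description.

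Of 5 summaries of the locus per library, none passed an adjusted p of 0.05 (exact permutation tests, two-sided, adjusted over the 5). The libraries listed 50 to 57 of the 71 circRNAs, with 51.25 ± 1.5 in sham and 54.5 ± 2.38 in mTBI (SD, n = 4 each, exact permutation p = 0.143, adjusted p = 0.571). The leading circRNA held 11.1% ± 1.21 and 10.2% ± 0.825 (exact permutation p = 0.314, adjusted p = 0.571), and the start at 34298523 held 21.4% ± 2.45 and 20.7% ± 0.693 (exact permutation p = 0.629, adjusted p = 0.686). The end at 34346224 held 21.1% ± 1.03 and 21.5% ± 1.61 (exact permutation p = 0.686, adjusted p = 0.686). The effective number of members, the number of equally abundant circRNAs that would give the same concentration, was 20.2 ± 0.843 in sham and 20.95 ± 1.02 in mTBI (exact permutation p = 0.343, adjusted p = 0.571).

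Libraries of 1 group could differ widely from each other, above all in the circRNAs that begin at 34249087. Their summed level was 1.43, 2.31, 3.71 and 1.06 RPM in the sham libraries and 2.15, 3.40, 3.01 and 2.83 RPM in the mTBI libraries. As a share of the locus this was 8.46%, 13.98%, 21.6% and 6.74% in sham and 12.3%, 19.95%, 15.1% and 14.6% in mTBI. Sham replicates 1 and 4 were the lowest of all 8 libraries and sham replicate 3 the highest, so that the sham group alone spanned the whole range.

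The same libraries were lowest and highest for 2 circRNAs of this start, chosen for their wide spread. The most abundant, from 34249087 to 34272145, had 0.607, 0.996, 1.82 and 0.477 RPM in the sham libraries and 0.813, 1.40, 1.19 and 1.38 RPM in the mTBI libraries. The longest member listed in every library, from 34249087 to 34346224, had 0.0258, 0.144, 0.466 and 0.0387 RPM in the sham libraries and 0.116, 0.3602, 0.417 and 0.130 RPM in the mTBI libraries. In both, sham replicates 1 and 4 were lowest and sham replicate 3 highest.

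The start at 34233020, upstream of it, had its lowest share in the library where 34249087 had its highest. Its circRNAs held 11.4%, 8.42%, 6.39% and 11.9% of the locus in sham and 10.9%, 7.03%, 8.07% and 11.1% in mTBI. Sham replicate 3 and mTBI replicate 2, the lowest here, were the highest for the start at 34249087. Shares of one total are not independent of each other. In RPM the start at 34233020 stood at 1.93, 1.39, 1.10 and 1.87 in sham and at 1.91, 1.196, 1.602 and 2.14 in mTBI, and sham replicate 3 and mTBI replicate 2 were again lowest. This was not particular to 34233020. The same libraries were lowest for the share of 34298523 (18.7% and 19.7%). In RPM they were lowest for 34270069 (1.46 and 1.52) and 34292209 (2.28 and 2.08). The starts at 34207716 and 34266719 showed this in neither measure. The comparison was chosen after its values were seen and carries no test.

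**Figure D5:**
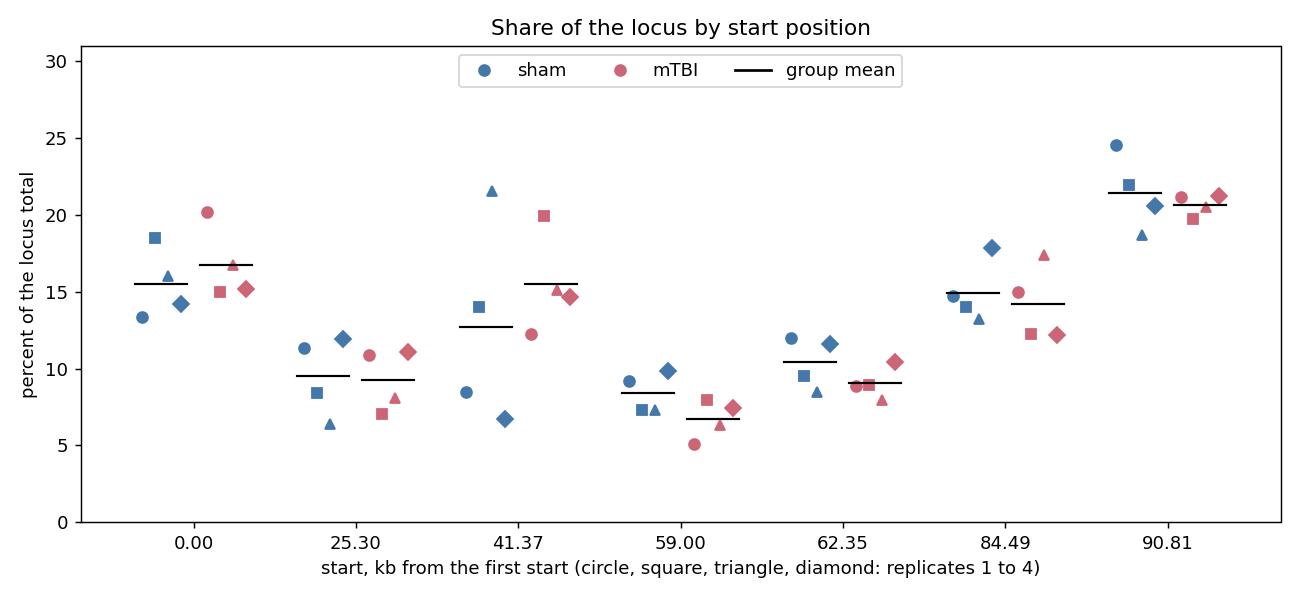
Percent of the locus total carried by each of the 7 starts with the most RPM, given in kb from the first start, in each library (sham and mTBI, replicates 1 to 4 as circle, square, triangle and diamond), with group means as bars. At 41.37 kb the sham libraries run from 6.74% to 21.6%, the widest range of the 7 starts.

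The spread between libraries was also set against counting noise, as the chi-square of reads around the group mean divided by its 6 degrees of freedom, which is near 1 when counting is the only source of spread. Over the 32 members averaging at least 10 reads its median was 2.49, against 2.19 over the 6151 such circRNAs of the table. It was above 3 for 13 of the 32, and the share of the 6151 above 3 was not computed. The highest values were 17.004 for the circRNA from 34249087 to 34272145 and 13.3 for that from 34249087 to 34346224, and the next was 7.52 for that from 34346074 to 34372833. The last of these had 0.220, 0.0262, 0.194 and 0.297 RPM in the sham libraries and 0.0387, 0.0643, 0.313 and 0.0908 RPM in the mTBI libraries. At the low end stood the circRNA from 34270069 to 34346224, with 0.783. What sets the libraries apart was not tested.

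Compared with the 3 loci nearest in number of tested circRNAs, the RPM of the chromosome 19 locus was spread over more of them. Its effective number of members was 18.98 to 22.1 over the 8 libraries. On chromosome 7, the minus-strand locus between 114445792 and 114637525 had 13.2 to 17.7 at 103 listed circRNAs. On chromosome 4, the one between 64389860 and 64704848, also on the minus strand, had 13.7 to 17.02 at 74. The plus-strand one on chromosome 7 between 78122159 and 78574310, with 77 listed circRNAs, had 6.90 to 8.97, and its leading circRNA held 29.4% of the total. By total RPM the chromosome 19 locus ranked 30 of 7776 loci. It was chosen for its many tested circRNAs, which bears on the effective number, so this is a description without a test.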

How the data were processed

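The authors deposited RPM values in 8 columns, which were matched to the sham and mTBI samples by group and replicate number, per the labels. Trimmomatic 0.36, DESeq and the build Rnor_6.0 come from the submitters' processing notes. For the aligner, and likewise for the caller of circRNAs, a name is not given in the sources used here. RNA was kept at an integrity number of at least 7, per the labels' protocols. Positions are printed as the table lists them, without knowing whether it counts from 0 or 1, and spans are end minus start. No genome of this build was used here, so no sequence is shown.

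In each library, every value above 0 was a whole multiple, within 0.01 read, of 0.5 times the smallest, so that the smallest was read as 2 reads of 76300000 to 77700000 (rounded).

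The whole table was fitted with limma (version 3.58.1, R version 4.3.3), using linear models with moderated variances that may follow intensity, on log2 of RPM plus a pseudocount of 0.0259, the smallest listed value of a library (median of 8). This scale understates the change of low circRNAs. The fit covered circRNAs listed in at least 4 of 8 libraries and, likewise, totals of loci, which are same-strand circRNAs joined by an exact shared start or end. All tests were two-sided, and p-values of these fits were adjusted by Benjamini-Hochberg over everything tested. Unequal change was tested with diffSplice, and values per library with exact permutation tests. The fits were run on simulated data with larger changes than that of the locus total, which does not show their power for small differences. Alternatives covered the pseudocount, the filter, centring, variance settings, voom on reads, the replicate block and leaving out each library. Tables were handled in Python 3.11.15 with numpy 2.4.6 and pandas 2.3.3, and drawn with matplotlib 3.10.9.

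The locus, its members and the rules were chosen with earlier results of these data known. Named members are the 12 with the highest mean, the 3 with the smallest p in each direction, tested members whose groups do not overlap, and the shortest and longest listed in all libraries. Named positions are the 4 starts and ends with the most RPM, the 3 with the most members and ends at most 10 bases apart. Outside these rules, and chosen after their values were seen, are the starts at 34227324, 34266719 and 34270069, the ends up to 60 bases apart, and the circRNAs from 34346074 to 34372833 and from 34270069 to 34346224. The comparison of the starts at 34233020 and 34249087 was chosen in the same way.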

Additional observations from a re-analysis of the deposited data

Results flagged for a closer look

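The locus total and share, the 5 summaries, the named circRNAs and the shares of the leading starts and ends gave 66 groups of 4 libraries. In 2 of them 1 library lay far from the other 3, where chance gives about 1 in 20. For the circRNA that runs from 34249087 to 34272192, mTBI replicate 4 had 0.182 RPM, while the other mTBI libraries had 0.391 to 0.424 RPM. The end at 34253181 held 9.47% of the locus total in sham replicate 3, against 6.55% to 6.91% in the other sham libraries. A circRNA is counted again in its start and its end, so these groups are not independent.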

How the results depend on the processing

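The locus total kept its direction under every alternative run. Its log2 change was 0.11 to 0.19 without each library in turn. None of the limma tests of it passed (smallest adjusted p = 0.681, with no filter). Only as a percent of the summed circRNA RPM did it differ at p = 0.0286 (exact permutation test, 0.0394 percentage points). That is another test, and its p is not adjusted over loci. That share differed by 0.0305 to 0.0449 percentage points without each library in turn. With the replicate number as a block, it differed by 0.0394 with an exact sign-flip p of 0.125, the smallest that 4 pairs allow. Deviations of same-numbered libraries correlated at -0.0119 to 0.0269 over 9082 circRNAs, and those of differently numbered ones at -0.0268 to 0.0246. Counting noise lowers such correlations, so they cannot show whether the numbers mark pairs. Over the whole table the block left 0 circRNAs past the threshold. The count of members past the threshold was 0, and 1 with no filter and 1 with robust variance shrinkage, the circRNA from 34227324 to 34241861 in both. Without each library in turn it was 0 (0 to 0). Of all circRNAs tested, 5 passed, against 55 with no filter, 23 with robust shrinkage, 10 with 4 times the pseudocount, 9 with centring, 3 with voom and 1 each with no intensity trend and with listing in all 8 libraries required. Of locus totals 1 passed, 20 with no filter. The intensity trend has no counterpart in diffSplice and was not varied there.

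Without each library in turn, the difference in the share of the leading start ran from -1.69 to 0.254 percentage points, positive only without sham replicate 1. That of the leading end ran from -0.110 to 0.980, negative only without mTBI replicate 1 or 3, and that of the leading circRNA from -1.24 to -0.321. The number listed differed by 2.42 to 4.08 and the effective number by 0.318 to 1.12. Log2 changes near 0 turned sign: from -0.051 to 0.11 for 34298523 to 34312530, -0.17 to 0.13 for 34266719 to 34272192, -0.21 to 0.14 for 34292209 to 34312530, -0.24 to 0.35 for 34270069 to 34298610 and -0.0074 to 0.24 for 34270069 to 34305849. With 4 times the pseudocount, 34270069 to 34298610 changed by 0.0058. The share with the leading end, taken without the leading start, was added after seeing the data and differed by 0.202. Only 32 members averaged at least 10 reads, which limits the rest.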

Other observations

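Among 1059 other loci averaging at least 1 RPM, the 3 whose totals varied most like that of the chromosome 19 locus were picked by Pearson r on the log2 scale over the 8 libraries. They were the plus-strand loci on chromosome 5 from 10243621 to 10376987 (r = 0.918, 3.07 RPM on average), chromosome 10 from 4624614 to 4629886 (r = 0.902, 1.27 RPM) and chromosome 6 from 64350288 to 64439371 (r = 0.854, 1.30 RPM). The chromosome 5 locus had 2.98, 2.67, 3.22 and 2.71 RPM in the sham libraries and 3.11, 2.95, 3.47 and 3.41 RPM in the injured ones. As the highest of 1059, these r describe the 8 libraries and carry no test.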
